A study of Mus musculus with 15 samples.

Results

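Astrocytes are the glial cells that clear glutamate from the synapse, buffer potassium and water, and pass substrates to neurons. Their uptake of glutamate by membrane transporters and its conversion to glutamine feed transmitter back to neurons, gap junctions couple neighbouring cells, and the end-feet that wrap blood vessels carry water channels. The 10 astrocyte genes described here, *Aldoc*, *Gfap*, *Aqp4*, *Slc1a2*, *Slc1a3*, *Gja1*, *Glul*, *S100b*, *Aldh1l1* and *Sox9*, were taken by name from the 23235 genes of an RNA-seq table of mouse cortex. All 10 are established markers of this cell type in the cortex, and their transcripts differ in length and in abundance.

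RNA was sequenced from dissected cortex of 9 adult male mice in 4 groups. WT mice were C57BL/6J, and *Snord116del* mice were of strain B6(Cg)-Snord116tm1.1Uta/J, listed as *Snord116del* (+/-), which per the methods of the study carry a deletion of the *Snord116* cluster inherited from the father and are compared with WT littermates. At Zt +6, that is 6 hours after lights on and in the light phase, there were 3 WT and 2 *Snord116del* mice, and at Zt +16, in the dark phase, there were 2 WT and 2 *Snord116del* mice. The table gives 1 FPKM value (sequenced fragments per kilobase of the transcript, relative to library size) for each gene and group, and none for a mouse. No standard deviation, interval or test could therefore be computed, every difference below lacks a replicate check, and the read depth cannot be seen in the table. The targeted gene gives no check of the groups, as it is listed at 0 FPKM in each of the 4. *Ipw*, a non-coding RNA made from the locus, stood at 21.6 FPKM in WT against 3.40 in *Snord116del* at Zt +6, then 3.17 and 1.82 at Zt +16. The sample descriptions name an earlier version of the table for 3 mice of Zt +6 (1 WT and both *Snord116del*), and a later version for the other 6 mice. What this means for the libraries is not stated, and its part in the differences was not tested.

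A hemisphere of adult brain, per the methods of the study, was the source of a second measurement. Chromatin isolation by RNA purification (ChIRP) retrieves an RNA, here *116HG*, the spliced long non-coding host transcript of the *Snord116* snoRNAs, with biotinylated antisense oligos, together with the DNA attached to it. Peak lists were available for 2 replicates of *116HG* ChIRP on WT brain, and for 1 library each of WT brain with non-specific control (NSC) oligos, and of *Snord116del* brain with either set of oligos. Peaks of WT *116HG* replicate 1 lay over exons of each of the 10 astrocyte genes. This was not particular to them. Of the annotated genes tested below, 93.6% had a replicate 1 peak inside them or within 2 kb. Of the peaks at those genes, 83.5% had their middle in an exon. The sequences that follow, read from the mm9 assembly in the reading direction of the gene, are shown because they carry this pattern: capitals mark bases that the GENCODE annotation of that assembly counts as coding, and lower case marks all other bases. For each gene shown, the peak of the list with the largest fold over input was chosen among those of at most 300 bases that touch no untranslated region. They are the peaks at chr2:102577926-102578095 in *Slc1a2* (plus strand, 153 of 170 bases coding), chr15:8592888-8593136 in *Slc1a3* (minus strand, 234 of 249) and chr11:78139137-78139332 in *Aldoc* (plus strand, 175 of 196). On the same assembly these genes span chr2:102498816-102630941 (*Slc1a2*), chr15:8584124-8660764 (*Slc1a3*) and chr11:78136470-78141283 (*Aldoc*). The last 2 sequences are the only *Slc1a2* peaks of WT *116HG* replicate 2, at chr2:102607622-102607674, and of WT NSC, at chr2:102502658-102502727, both in introns and without a coding base.
Slc1a2, replicate 1: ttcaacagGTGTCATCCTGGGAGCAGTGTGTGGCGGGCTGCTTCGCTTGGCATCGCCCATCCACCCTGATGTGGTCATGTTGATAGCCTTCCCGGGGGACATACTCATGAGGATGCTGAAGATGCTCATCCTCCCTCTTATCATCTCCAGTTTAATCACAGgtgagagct
Slc1a3, replicate 1: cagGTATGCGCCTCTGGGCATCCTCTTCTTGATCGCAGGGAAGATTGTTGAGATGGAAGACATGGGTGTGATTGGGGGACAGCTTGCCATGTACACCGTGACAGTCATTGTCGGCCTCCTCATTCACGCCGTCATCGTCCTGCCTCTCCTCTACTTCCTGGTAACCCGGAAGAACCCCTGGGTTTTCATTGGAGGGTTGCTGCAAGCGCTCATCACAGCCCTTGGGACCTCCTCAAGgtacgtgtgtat
Aldoc, replicate 1: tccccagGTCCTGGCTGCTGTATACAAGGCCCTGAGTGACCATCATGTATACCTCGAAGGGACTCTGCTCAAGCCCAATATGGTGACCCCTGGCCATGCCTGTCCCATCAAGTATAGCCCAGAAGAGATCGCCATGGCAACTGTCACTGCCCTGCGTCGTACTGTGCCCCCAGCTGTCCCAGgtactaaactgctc
Slc1a2, replicate 2: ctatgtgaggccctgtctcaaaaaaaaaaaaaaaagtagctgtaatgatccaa
Slc1a2, WT NSC: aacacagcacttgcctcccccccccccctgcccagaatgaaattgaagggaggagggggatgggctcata
The exon peaks of *Slc1a2*, *Slc1a3* and *Aldoc* began 8, 3 and 7 bases before the exon, with the bases ag directly before the first coding base, and ended 9, 12 and 14 bases after it, with gt directly after the last.

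For each pair of groups, a gene counted as higher or lower if its FPKM + 1 was 1.5-fold or more apart and the higher of the values reached 1 FPKM. The rule was run on the 10297 genes whose mean over the 4 groups was 1 FPKM or more, which include all 10 astrocyte genes. Differences are given as log2 of the ratio of FPKM + 1, a scale that understates the change of low genes. At Zt +6, 9 of the 10 astrocyte genes were higher in *Snord116del* than in WT cortex and none was lower, while 49.3% of all tested genes were higher and 7.62% lower by the same rule. At Zt +16, 3 of the 10 were higher and none was lower, beside 19.0% and 0.204% of all tested genes. From Zt +6 to Zt +16 in WT cortex, 1 astrocyte gene was higher and 5 were lower, beside 5.71% and 10.3% of all tested genes. In *Snord116del* cortex 1 was higher and 7 were lower, beside 25.0% and 39.1%. These 4 comparisons share groups with each other, so a low or high value of 1 group enters 2 of them, and the comparisons of the times set values from separate blocks of the table side by side, whose joint normalization is not given in the sources used here.

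The shift of all genes has to be held beside each of these counts. The median log2 difference over all tested genes was 0.57 for *Snord116del* against WT at Zt +6, 0.35 at Zt +16, -0.04 for Zt +16 against Zt +6 in WT and -0.24 in *Snord116del*. Over the 10 astrocyte genes it was 1.21, 0.32, -0.53 and -1.55. The astrocyte median minus that of all genes was thus 0.64 and -0.03 for the genotypes at Zt +6 and Zt +16, and -0.49 and -1.31 for the times in WT and *Snord116del*. In cortex, a change in the number of astrocytes and a change in RNA per astrocyte cannot be told apart.

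**Figure D1:**
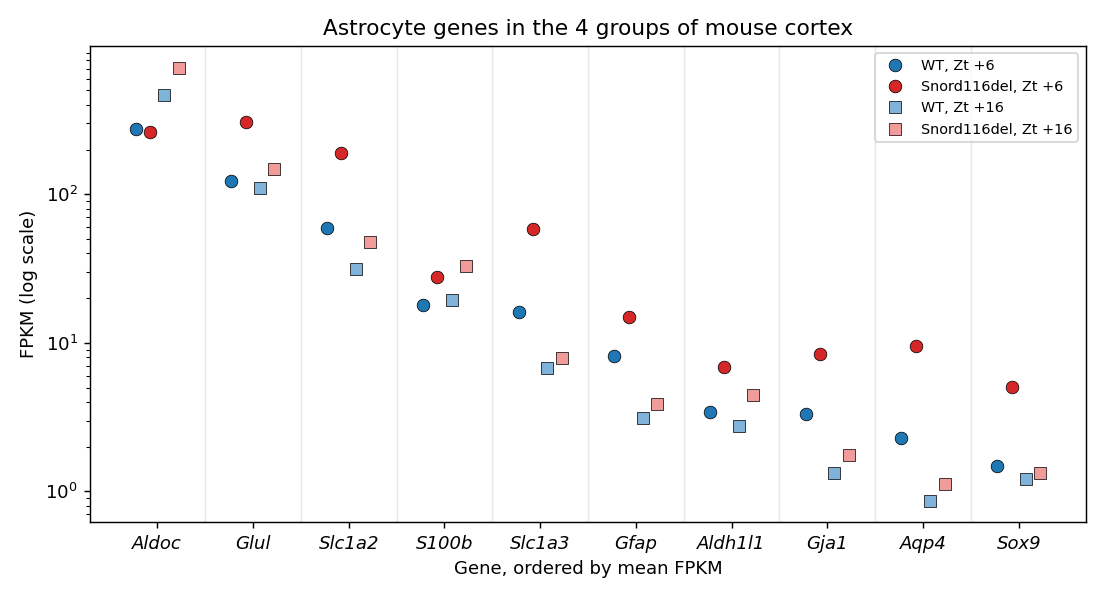
FPKM of the 10 astrocyte genes in each of the 4 groups, on a log axis, with genes ordered by their mean over the groups; each point is the 1 value that the table gives for a group, circles are Zt +6, squares are Zt +16, blue is WT and red is *Snord116del*. For 9 genes the *Snord116del* point at Zt +6 lies above the WT point, with *Aldoc* the exception (275 in WT against 261 in *Snord116del*), and for 8 genes it is the highest of the 4 points.

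The genes that take up glutamate and convert it had some of the largest differences. Where FPKM values are given in pairs for a time, that of WT comes first. *Slc1a2* encodes the transporter GLT-1, which removes most synaptic glutamate in the forebrain, and was at 59.2 FPKM in WT against 189 in *Snord116del* at Zt +6, then 31.5 and 47.8 at Zt +16. *Slc1a3*, which encodes the related transporter GLAST, was at 16.2 and 58.7 at Zt +6, then 6.73 and 7.85 at Zt +16. *Glul* encodes glutamine synthetase, which turns the glutamate taken up into glutamine, and was at 122 and 304 at Zt +6, then 111 and 147 at Zt +16. All 3 had their highest value in *Snord116del* at Zt +6 and their lowest in WT at Zt +16. On the log2 scale *Slc1a2* was higher in *Snord116del* by 1.65 at Zt +6 and 0.59 at Zt +16, the latter only just past the limit of 0.585. *Slc1a3* was higher by 1.80 at Zt +6, the 98.4th percentile of all tested genes, and its 0.20 at Zt +16 did not pass the rule. The values of *Glul* were 1.31 and 0.41, of which the first passed.

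With all groups brought to the same median, *Slc1a2* kept a difference of 0.83 and *Slc1a3* of 0.99 at Zt +6, whereas that of *Glul* fell to 0.48, below the limit. The difference of *Slc1a2* at Zt +16 changed sign with the groups scaled to the same FPKM sum (-0.057) and after quantile normalization (-0.00081). In time, *Slc1a2* and *Slc1a3* were lower at Zt +16 than at Zt +6 in both genotypes, by -0.89 and -1.15 in WT and by -1.96 and -2.75 in *Snord116del*. Once the trend with transcript length over all genes was taken out, *Slc1a2* stood at -0.43 in WT and -0.27 in *Snord116del* and passed in neither, while *Slc1a3*, at -0.97 and -2.10, still passed in both. *Glul* was lower in *Snord116del* alone by the rule (-1.04, against -0.14 in WT). Between the 2 transporters the ratio of FPKM, which no scaling of a group can change, was 3.66 in WT against 3.21 in *Snord116del* at Zt +6, then 4.68 and 6.09 at Zt +16. *Slc1a2* was thus the more abundant transporter in every group.

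The genes of gap junctions and water channels were among the rarer of the 10 genes, and had a like pattern. *Gja1* encodes connexin 43, the main gap junction protein of astrocytes, and was at 3.30 FPKM in WT against 8.42 in *Snord116del* at Zt +6, then 1.33 and 1.75 at Zt +16. *Aqp4*, the water channel of the end-feet, was at 2.29 and 9.57 at Zt +6, then 0.868 and 1.13 at Zt +16. Both were highest in *Snord116del* at Zt +6 and lowest in WT at Zt +16, and *Aqp4* crossed from the lowest of the 10 genes at Zt +16 to the seventh in *Snord116del* at Zt +6. *Gja1* was higher in *Snord116del* by 1.13 at Zt +6 and *Aqp4* by 1.68, and their differences of 0.24 and 0.19 at Zt +16 did not pass. From Zt +6 to Zt +16, *Gja1* was lower by -0.88 in WT and -1.78 in *Snord116del*, and *Aqp4* by -0.82 and -2.31. The ratio of *Aqp4* to *Gja1* was 0.695, 0.650 and 0.644 in the WT groups and in *Snord116del* at Zt +16, and 1.14 in *Snord116del* at Zt +6. With the groups scaled to the same median *Aqp4* still differed by 1.00 at Zt +6, while *Gja1*, at 0.43, no longer passed.

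The metabolic genes went separate ways. *Aldoc* encodes aldolase C, the aldolase of glycolysis in the brain, and was at 275 FPKM in WT against 261 in *Snord116del* at Zt +6, then 465 and 713 at Zt +16. It was the only astrocyte gene that was not higher in *Snord116del* at Zt +6 (-0.08, the 19.5th percentile of all tested genes), and, on the deposited scale, the only one that passed the rule upward with time, by 0.76 in WT against 1.45 in *Snord116del*. At Zt +16 it was higher in *Snord116del* by 0.62. These values depended on the scale of the groups. At Zt +6 the difference was -0.91 with the groups scaled to the same median and 0.64 after quantile normalization, at Zt +16 it was -0.044 with the same FPKM sum, and the differences in time were 0.075 in WT and -0.55 in *Snord116del* after quantile normalization. *Aldh1l1* encodes a folate-dependent dehydrogenase widely used to mark astrocytes. It was at 3.44 and 6.86 FPKM at Zt +6, then 2.75 and 4.46 at Zt +16, so that it was higher in *Snord116del* by 0.82 at Zt +6 and the other 3 differences (0.54 at Zt +16, -0.24 and -0.53 in time) did not pass.

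Ratios within a group show how far *Aldoc* parted from the glutamate genes whatever factor a group is scaled by. They do not remove the trend with transcript length, which at Zt +6 was 0.459 per doubling of length over all tested genes. *Aldoc* has 2786 bases, *Glul* 2792, *Slc1a3* 4435 and *Slc1a2* 11595. The part of length in these ratios was not tested. *Aldoc* was 4.64 times as abundant as *Slc1a2* in WT at Zt +6, 1.38 times in *Snord116del* at Zt +6, and 14.8 and 14.9 times in WT and *Snord116del* at Zt +16. Against *Slc1a3* the ratios were 17.0 and 4.44 at Zt +6, and 69.1 and 90.8 at Zt +16. Against *Glul* they were 2.25 and 0.857, and 4.19 and 4.84. In *Snord116del* at Zt +6, and in none of the other 3 groups, *Aldoc* was less abundant than *Glul*. All 3 ratios were lowest in that group. *Aldoc* made up 54.0% of the summed FPKM of the 10 genes in WT against 29.5% in *Snord116del* at Zt +6, then 72.3% and 74.2% at Zt +16.

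*Gfap*, the intermediate filament protein that increases in reactive astrocytes, was at 8.11 FPKM in WT against 15.0 in *Snord116del* at Zt +6, then 3.13 and 3.89 at Zt +16. *S100b*, a calcium-binding protein, was at 18.1 and 27.9 at Zt +6, then 19.5 and 33.0 at Zt +16. *Gfap* followed time as well as genotype, whereas the *S100b* values separated by genotype and hardly by time. *Gfap* was higher in *Snord116del* by 0.81 at Zt +6, its 0.24 at Zt +16 did not pass, and it was lower at Zt +16 by -1.14 in WT and -1.71 in *Snord116del*. *S100b* was higher in *Snord116del* by 0.60 at Zt +6 and 0.73 at Zt +16, and its differences in time (0.11 and 0.23) did not pass. Neither genotype difference of *S100b* passed with the groups scaled to the same median, where the one at Zt +6 was -0.19 and that of *Gfap* was 0.05. In *Snord116del*, the difference of *S100b* in time passed in either direction, at 0.71 with the same median and -0.82 with the same FPKM sum.

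*Sox9*, a transcription factor that directs glial fate and stays on in adult astrocytes, was the rarest of the 10 genes at Zt +6. It was at 1.48 FPKM in WT against 5.09 in *Snord116del* at Zt +6, then 1.20 and 1.32 at Zt +16. The *Snord116del* value at Zt +6 stood apart from the other 3, which lay between 1.20 and 1.48. *Sox9* was higher in *Snord116del* by 1.29 at Zt +6 (0.68 with the same median) and lower with time in *Snord116del* by -1.39, and its difference of 0.08 between genotypes at Zt +16 was at the 8.11th percentile of all tested genes.

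The order of the 10 genes by FPKM, which is adjusted for length, was much the same in the 4 groups. *Aldoc*, *Glul* and *Slc1a2* were the 3 most abundant in each, with *Glul* before *Aldoc* in *Snord116del* at Zt +6. *S100b* and *Slc1a3* came next, and *S100b* was the higher of the pair in the WT groups and at Zt +16, at 1.12 times *Slc1a3* in WT at Zt +6, but not in *Snord116del* at Zt +6 (0.475 times). The highest gene was 186 times the lowest in WT at Zt +6, 59.9 times in *Snord116del* at Zt +6, then 536 and 633 times at Zt +16. Without a spread between mice, it cannot be said which neighbours in this order differ.

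The comparison of shorter with longer transcripts was made on the longest annotated transcript. The 5 shorter genes, *S100b*, *Gfap*, *Aldoc*, *Glul* and *Gja1*, have transcripts of 1484 to 3105 bases, and the 5 longer ones, *Sox9*, *Aldh1l1*, *Slc1a3*, *Aqp4* and *Slc1a2*, have 4135 to 11595. At Zt +6 the median log2 difference of *Snord116del* against WT was 0.81 in the shorter genes, of which 4 of 5 passed, and 1.65 in the longer ones, of which 5 of 5 passed, beside 49.3% of all tested genes. When the genes were split by the median length of their annotated transcripts the order turned, and the 5 shorter genes were 0.18 above the 5 longer ones. At Zt +16, beside 19.0% of all tested genes, 2 shorter and 1 longer gene passed, with medians of 0.41 and 0.20. This difference of 0.21 between the medians was -0.00022 with the groups scaled to the same median, -0.023 with the same FPKM sum and -0.028 after quantile normalization. From Zt +6 to Zt +16 the longer genes were lower by a median of -0.82 in WT and -1.96 in *Snord116del*, and the shorter ones by -0.14 and -1.04. The single higher gene with time, *Aldoc*, was among the shorter genes.

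At Zt +6, abundance did not split the genes in the same way. The 5 more abundant genes, *Slc1a3*, *S100b*, *Slc1a2*, *Glul* and *Aldoc*, with means of 22.4 to 428 FPKM, had a median difference of 1.31 at Zt +6, and the 5 rarer ones, *Sox9*, *Aqp4*, *Gja1*, *Aldh1l1* and *Gfap*, with 2.27 to 7.53 FPKM, had 1.13. At Zt +16 the medians of the more abundant and the rarer genes were 0.59 and 0.24. With time they were -0.14 and -0.82 in WT, and -1.04 and -1.71 in *Snord116del*. In these comparisons the more abundant genes lay above the rarer ones, as the shorter genes lay above the longer ones. Short and abundant are not the same 5 genes here: *Slc1a2* and *Slc1a3* are long and abundant, and *Gfap* and *Gja1* are shorter and rare. The median difference at Zt +6 was 1.73 for the 2 long and abundant genes, and 1.29 for the 3 long and rarer ones (*Sox9*, *Aldh1l1* and *Aqp4*). It was 0.97 for the 2 shorter and rarer ones and 0.60 for the 3 shorter and abundant ones (*S100b*, *Aldoc* and *Glul*). At Zt +6 both classes of longer genes thus lay above both classes of shorter genes. At Zt +16 the classes stood at 0.39, 0.19, 0.24 and 0.62, in the same sequence, and the abundant genes were above the rarer ones.

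Length went with the difference over all genes, not over the astrocyte genes alone. In 5 bins of all tested genes by transcript length, the median difference at Zt +6 ran from -0.20 in the shortest bin through 0.34, 0.55 and 0.81 to 1.14 in the longest. At Zt +16 it ran the other way, from 0.53 to 0.23, and with time it ran from 0.26 to -0.35 in WT and from 0.99 to -1.27 in *Snord116del*. Spearman's rho between length and the difference was 0.81 over the 10 astrocyte genes and 0.63 over the 10165 tested genes with a length at Zt +6. At Zt +16 it was -0.42 and -0.38, with time in WT -0.49 and -0.49, and with time in *Snord116del* -0.70 and -0.62. These are descriptions across genes, which share their libraries and are not replicates.

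Set against genes of like length, the astrocyte genes still differed among themselves. *S100b*, in the shortest bin, was at 0.60 where that bin had a median of -0.20. *Slc1a3* at 1.80 and *Sox9* at 1.29 compare with 0.81 in their bin, *Glul* at 1.31, *Gja1* at 1.13 and *Gfap* at 0.81 with 0.55, and *Aqp4* at 1.68 and *Slc1a2* at 1.65 with 1.14. *Aldh1l1*, at 0.82, was at the median of its bin, and *Aldoc*, at -0.08, was below its median of 0.55. After a straight line in log2 length, fitted over all tested genes, had been taken out, 3 astrocyte genes were higher at Zt +6 (*Slc1a3* at 1.00, *Glul* at 0.82 and *Aqp4* at 0.79), beside 12.7% of all tested genes higher and 13.1% lower. *Slc1a2*, the gene with the longest transcript, then stood at 0.22. Under all 7 alternative settings of scale, pseudocount, filter, fold and length, *Slc1a3* and *Aqp4* were higher at Zt +6 by the rule, and no other astrocyte gene was under all 7. The setting without the filter could not change the call of a gene already tested.

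**Figure D2:**
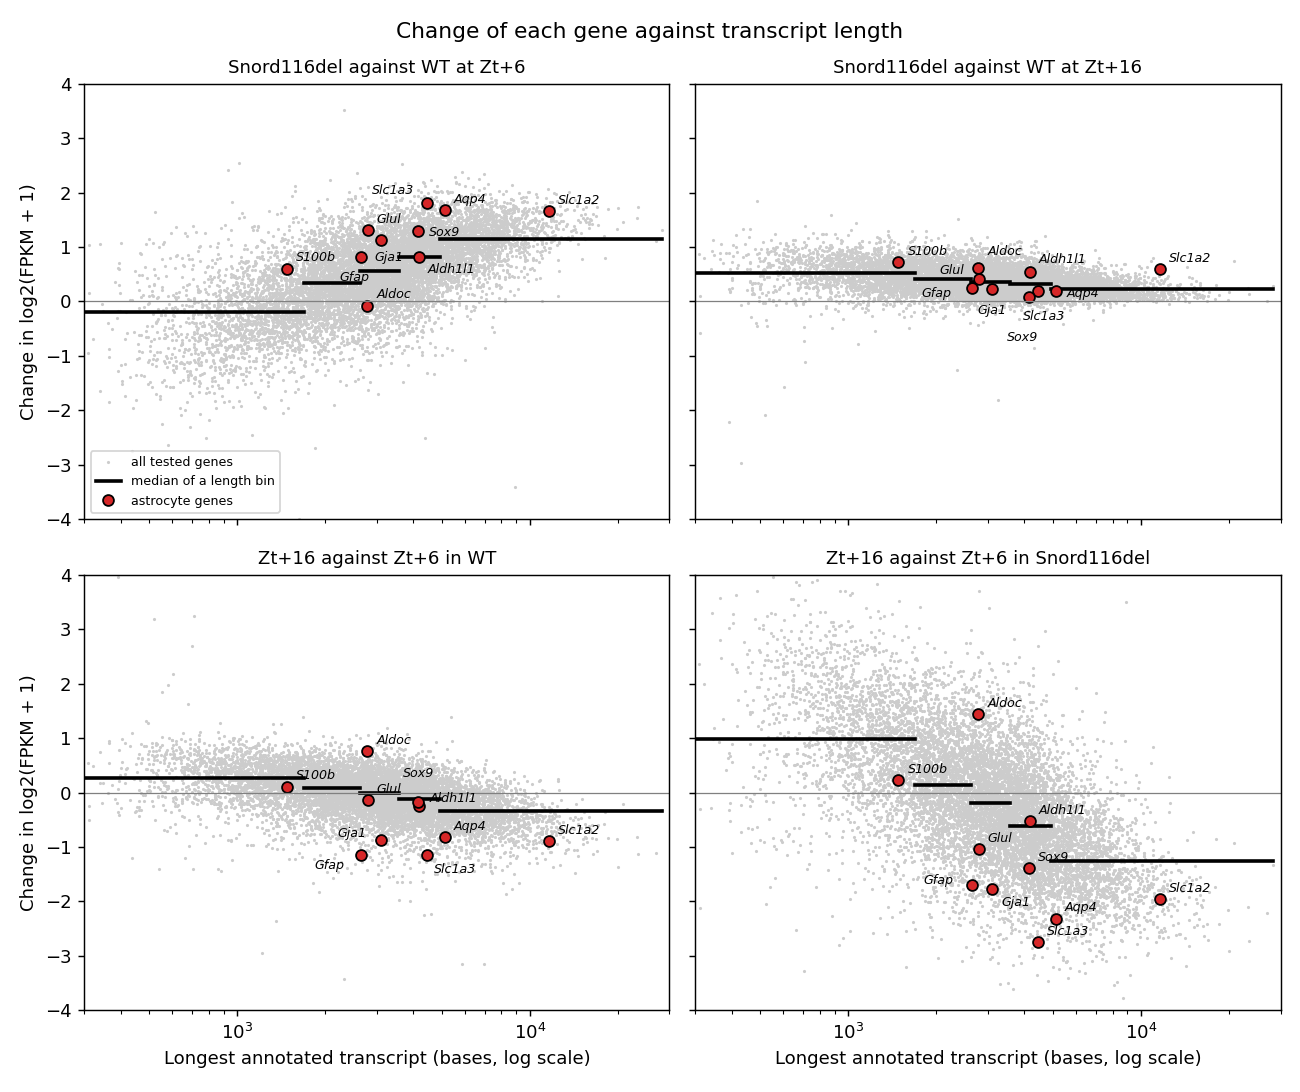
Log2 difference of FPKM + 1 against the length of the longest annotated transcript (bases, log axis) in the 4 comparisons; grey points are the 10165 tested genes with a length, of which 49 lie outside an axis of at least 1 panel, black bars are the medians of the 5 bins by length, and red points are the astrocyte genes. At Zt +6 the bars climb from -0.20 to 1.14 and the astrocyte genes other than *Aldoc*, which is below, and *Aldh1l1*, which is at its bar, lie above the bar of their length, whereas in *Snord116del* with time the bars descend from 0.99 to -1.27 and *Aldoc* lies far above its bar.

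Other genes of astrocytes were placed beside the 10, in 7 lists by role. All lists but that of receptors and secreted proteins also hold some of the 10, which are included in the list counts and medians below. Of 68 further genes, 59 were abundant enough to test. At Zt +6, 36 of these were higher in *Snord116del* and 3 were lower, beside 49.3% and 7.62% of all tested genes, with a median of 0.80, between the 0.57 of all genes and the 1.21 of the 10 astrocyte genes. At Zt +16, 15 were higher and none was lower, beside 19.0% and 0.204% (median 0.41). With time, 5 were higher and 14 lower in WT, beside 5.71% and 10.3% (median -0.09), and 12 higher and 30 lower in *Snord116del*, beside 25.0% and 39.1% (-0.67).

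In the glutamate and GABA list all 9 tested genes were higher at Zt +6, with a median of 1.46, beside 49.3% of all tested genes. The 6 that are not among the 10 astrocyte genes had a median of 1.22. Within the whole list, *Slc1a3* had the largest difference and *Slc6a11*, which encodes the GABA transporter GAT-3, the smallest (5.70 FPKM in WT against 10.3 in *Snord116del*, 0.75). In the gap junction, potassium and water list 7 of 10 were higher and none was lower (median 1.22). Of the 8 that are not among the 10 astrocyte genes, 5 were higher (median 1.20). *Kcnj10*, the inward rectifier Kir4.1 that takes up potassium, went from 6.54 to 29.4 FPKM (2.01), and *Mlc1*, a membrane protein of end-feet, from 31.1 to 36.1 (0.21, which did not pass).

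Of the tested transcription factors 7 of 9 were higher (median 1.29), beside 49.3% of all tested genes higher and 7.62% lower. Without *Sox9*, 6 of 8 were higher (median 1.24). *Nfib*, a factor of glial differentiation, went from 2.49 to 9.05 FPKM (1.52), *Hes5*, a target of Notch signalling, from 7.89 to 5.58 (-0.44, which did not pass), and *Id3*, an inhibitor of DNA binding, was the 1 lower gene, at 31.9 and 19.1 (-0.71). Of the receptors and secreted proteins 13 of 17 were higher and none was lower (median 1.16). *Ednrb*, an endothelin receptor, went from 2.51 to 9.64 (1.60) and *Gpr37l1*, an orphan receptor of astrocytes, from 51.3 to 44.8 (-0.19). *Hes5*, *Id3* and *Gpr37l1* have transcripts of 1273, 1278 and 2269 bases, and *Nfib* and *Ednrb* of 9116 and 3989.

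In the metabolism list 5 of 9 were higher (median 0.78), with *Pygb*, a glycogen phosphorylase, at 7.66 and 15.5 FPKM (0.93) at one end and *Aldoc* at the other. Of the 7 tested genes of that list that are not among the 10 astrocyte genes, 4 were higher. In the filament and reactive list 2 of 5 tested genes were higher (median 0.43), and without *Gfap* 1 of 4. *Gfap* had the largest difference and *Serpina3n*, a protease inhibitor of reactive astrocytes, the smallest (4.20 and 3.80, -0.12), and 5 further genes of that list had a mean under 1 FPKM. The list of lipid, metal and calcium binding proteins, whose transcripts have a median length of 768.5 bases, stood apart from the others. At Zt +6, 2 of its 10 genes were higher and 2 lower, with a median of -0.10, and at Zt +16, 7 were higher and none was lower, with a median of 0.78. Short genes in general went the same way: the shortest of 5 bins of all tested genes had medians of -0.20 and 0.53. The shares of all tested genes were 49.3% higher and 7.62% lower at Zt +6, and 19.0% and 0.204% at Zt +16. *Fabp7*, a fatty acid binding protein, went from 22.7 to 10.5 FPKM at Zt +6 (-1.04) and the metallothionein *Mt1* from 630 to 338 (-0.90). *S100b* and *Clu*, the secreted chaperone clusterin (89.8 and 146, 0.70), were the higher ones, and *S100a1*, a relative of *S100b*, was at 88.8 and 91.2 (0.04).

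Marker lists of the other cells of cortex also held higher genes at Zt +6, beside 49.3% of all tested genes and an all-gene median of 0.57, and their part in the result was not tested. Of neuronal markers 6 of 10 were higher (median 0.74), of oligodendrocyte markers 5 of 10 (0.67), of microglial markers 4 of 9 tested (0.40) and of endothelial markers 8 of 8 tested (0.94), and none of these lists had a lower gene. The summed FPKM of the neuronal list was 1011 in WT against 1776 in *Snord116del* at Zt +6, against 793 and 1106 at Zt +16, and that of the 10 astrocyte genes was 509 and 885, against 643 and 961. As a share of the FPKM of all genes the astrocyte genes made up 0.320% in WT against 0.553% in *Snord116del* at Zt +6, then 0.297% and 0.281% at Zt +16. Choroid plexus was represented by 1 tested gene of 6, *Ttr*, the transthyretin carrier, at 200 and 182 FPKM at Zt +6 and 24.9 and 29.6 at Zt +16. The other 5 had a mean under 1 FPKM, and each was likewise lower at Zt +16 than at Zt +6 in both genotypes. Whether the tissue taken differed between the times, and its part in the differences with time, was not tested.

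**Figure D3:**
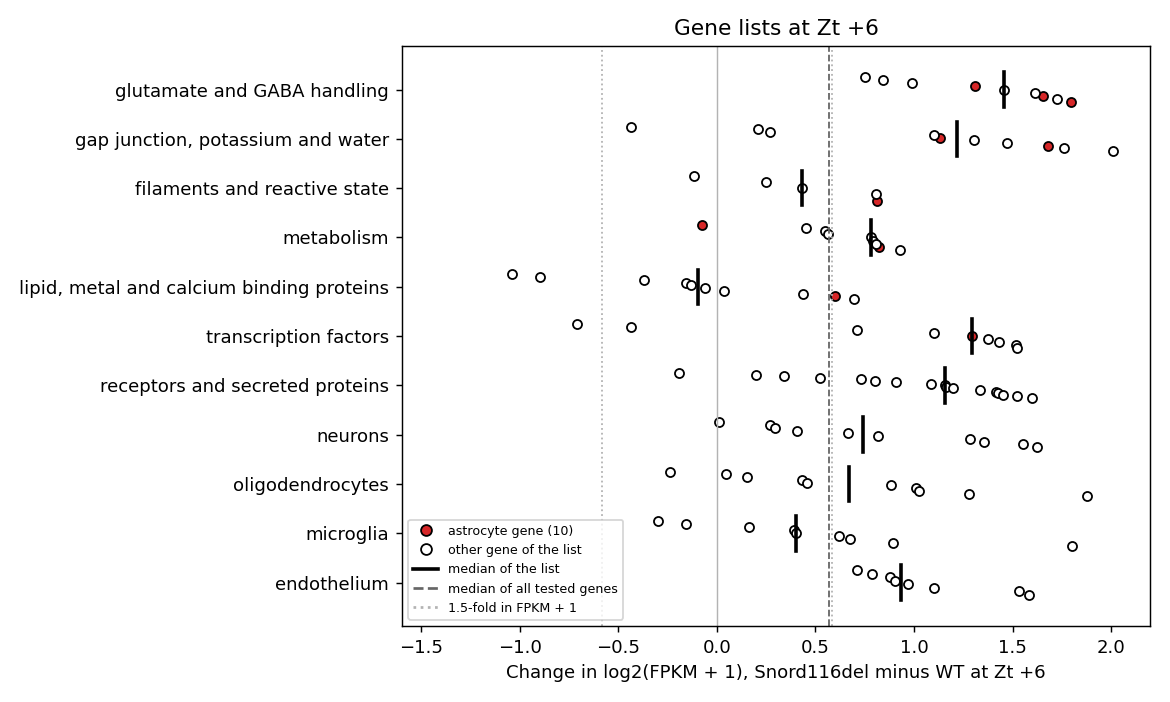
Log2 difference of FPKM + 1 for *Snord116del* minus WT at Zt +6 in the 7 lists of astrocyte genes and in 4 lists of other cells; red points are the 10 astrocyte genes, white points the other tested genes of a list, bars the median of each list, the dashed line the median of all tested genes (0.57) and dotted lines the 1.5-fold limits. The list medians range from -0.10 for lipid, metal and calcium binding proteins to 1.46 for glutamate and GABA handling.

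The genes whose profile over the 4 groups was most like the mean profile of the 10 were looked for among all tested genes. Profiles of log2 FPKM + 1 were centred on their own mean, and likeness was the Euclidean distance over the 4 groups. The nearest were *Kif1a*, a kinesin of axonal transport (distance 0.019, at 56.5, 123, 41.0 and 54.6 FPKM in WT and *Snord116del* at Zt +6 and in WT and *Snord116del* at Zt +16), *Mfsd4* (0.029), *Cog1*, a Golgi complex subunit (0.031), *Trap1*, a mitochondrial chaperone (0.038), and *Sirpa*, a membrane receptor (0.043). None of these 5 is in an astrocyte list used here.

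The *116HG* ChIRP peaks were counted at each astrocyte gene, within the gene or 2 kb of it. WT *116HG* replicate 1 had peaks at 10 of 10 astrocyte genes, beside 93.6% of the 10165 tested genes with an annotation. Replicate 2 had a peak at 1 of 10, beside 17.5%, WT NSC at 1, beside 2.53%, *Snord116del* *116HG* at 0, beside 2.86%, and *Snord116del* NSC at 1, beside 10.6%. Replicate 2, WT NSC and *Snord116del* NSC had their single peaks at *Slc1a2*, *Slc1a2* and *Glul*. A peak of replicate 1 was called replicated when a replicate 2 peak lay within 10 kb. Such peaks lay at 3 of 10 astrocyte genes, *Slc1a2*, *Slc1a3* and *Gja1*, beside 18.0% of tested genes. When peaks of the replicates had to overlap, such peaks lay at 0 of 10, beside 4.58% of tested genes.

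Of the 93 replicate 1 peaks at the astrocyte genes, 80 (86.0%) had their middle in an exon, beside 83.5% of the 61948 replicate 1 peaks at tested genes. Replicated peaks were 8 of the 93 (8.60%), beside 8.55% at tested genes. The transcripts with the longest coding sequence of the 10 genes have 84 exons together, and a replicate 1 peak touched 55 (65.5%) of them. Among the 5 more abundant genes, peaks touched all exons of *Aldoc* (9 of 9), *Glul* (7 of 7) and *S100b* (3 of 3), 9 of 10 in *Slc1a3* and 10 of 12 in *Slc1a2*. Among the 5 rarer ones they touched both exons of *Gja1* (2 of 2), 7 of 9 in *Gfap*, 2 of 3 in *Sox9*, 2 of 6 in *Aqp4* and 4 of 23 in *Aldh1l1*. The printed exons of *Slc1a2*, *Slc1a3* and *Aldoc* show such peaks, which begin and end within 14 bases of the coding exon.

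**Figure D4:**
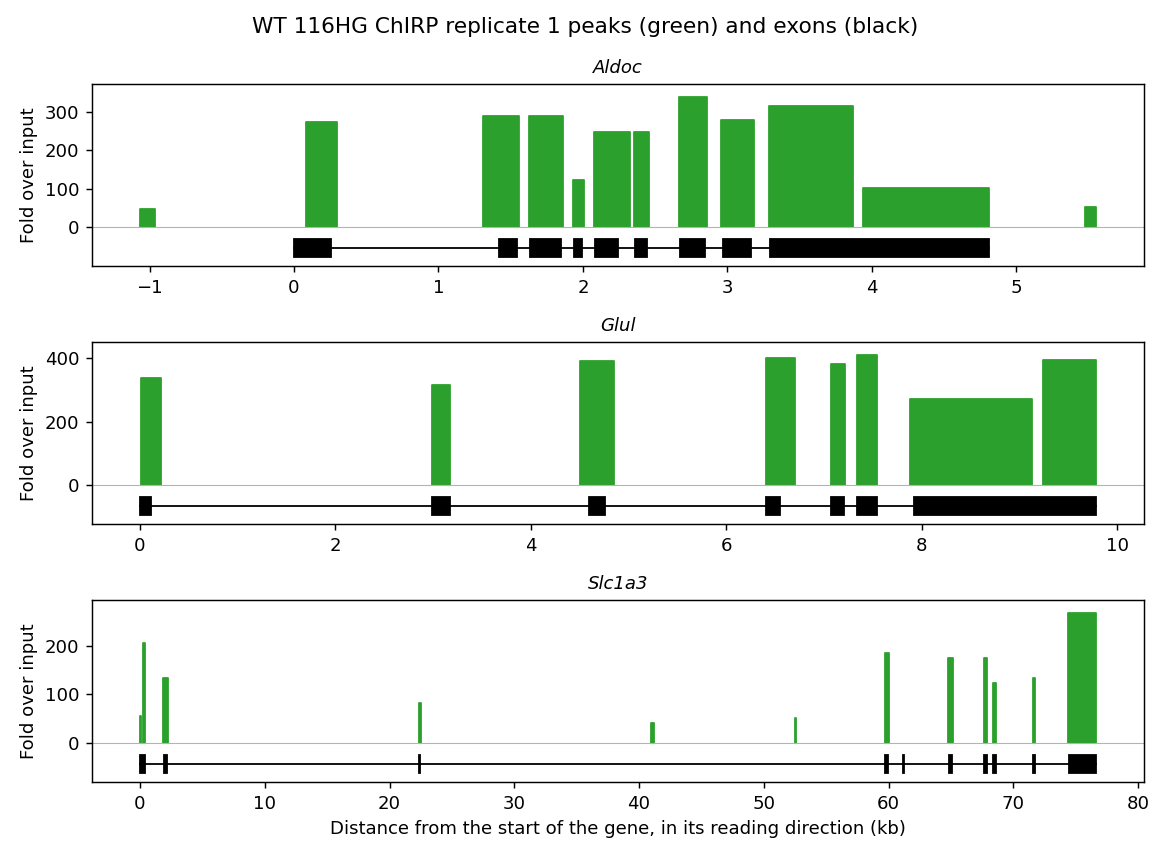
WT *116HG* replicate 1 peaks (green, height is the deposited fold over input) above the exons (black boxes, with introns as lines) of *Aldoc*, *Glul* and *Slc1a3*, by distance from the start of the gene in kilobases. Each exon of *Aldoc* and *Glul* and 9 of 10 exons of *Slc1a3* carry a peak, and 2 peaks of *Aldoc* lie outside the gene.

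The height of the peaks went with the level of the gene. The largest fold over input at each gene was 339 for *Aldoc*, 410 for *Glul*, 687 for *Slc1a2*, 268 for *Slc1a3*, 205 for *S100b* and *Gfap*, 133 for *Gja1*, 103 for *Aqp4*, 92.3 for *Aldh1l1* and 71.8 for *Sox9*. The median of these values was 205, beside 113 over the 9518 tested genes with a replicate 1 peak. The *Slc1a2* peak of 687, at chr2:102498404-102499470 over the start of the gene, had the highest fold of all 78033 peaks of the list. Spearman's rho between the largest fold and the mean FPKM of the cortex was 0.89 over the 10 astrocyte genes and 0.57 over the 9518 genes. This is a description: the peaks come from 1 library of a brain hemisphere and the FPKM from cortex.

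**Figure D5:**
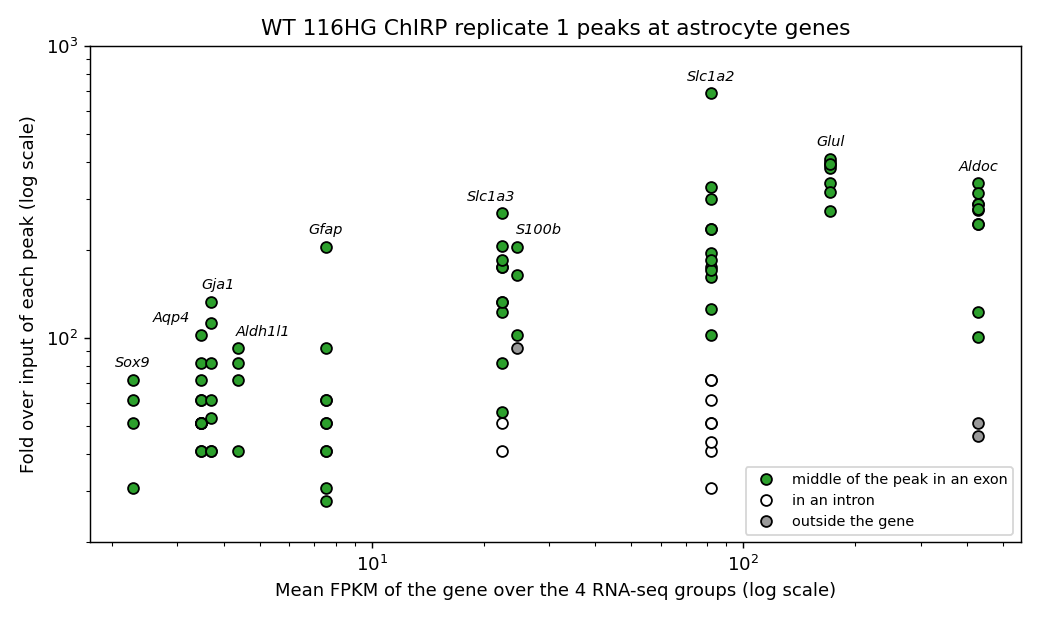
Fold over input of each WT *116HG* replicate 1 peak at the astrocyte genes against the mean FPKM of the gene over the 4 groups, both on log axes; green points have their middle in an exon, white in an intron and grey outside the gene. The highest point of each gene climbs from 71.8 for *Sox9* to 410 for *Glul* and 687 for *Slc1a2*, and the peaks in introns, at *Slc1a2* and *Slc1a3*, lie at 71.8 or below.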

How the data were processed

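RNA-seq of cortex (9 mice, 4 groups) and ChIRP-seq of brain (5 peak lists) were analysed. Per the submitters' processing notes and the methods, the authors aligned ChIRP reads to mm9 with Bowtie2 2.0.0, called peaks in each library against a WT input with MACS 1.4.2, and aligned RNA reads with TopHat2 2.0.5 before Cuffdiff 2.0.2, with CASAVA 1.8.0 named as a further tool. The deposited RNA values are FPKM, 1 per gene and group, so the spread between mice is lost, and the library normalization behind them is not given in the sources used here. The deposited fold over input of a peak is a ratio, absent from the list of WT *116HG* replicate 2, which holds positions only. The table's columns of the authors' own log2 fold change, q-value and significance call were not used.

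A limma fit was planned for values per mouse. As the table holds group values, genes whose mean reached 1 FPKM were compared by a rule: FPKM + 1 had to differ 1.5-fold or more, and the higher group had to reach 1 FPKM. Members and gene lists were chosen with earlier results of these data known. The text names all 10 members, from each further list the tested genes with the largest and smallest absolute difference at Zt +6 and any past the rule against most of its list, and the 5 genes nearest to the mean profile. Other genes named were chosen after their values were seen. Lengths, exons and coding bases came from GENCODE vM1 on NCBIM37, the assembly of mm9: 98.7% of tested genes had a length. Peaks within 2 kb of a gene were assigned to it. The alternatives were a pseudocount of 0.1, groups scaled to the same median or the same FPKM sum, quantile normalization, removal of the length trend, a fold of 2, no filter on low values, other transcript lengths and other peak rules. Scripts used numpy 2.4.6 and pandas 2.3.3 under Python 3.11.15, rank correlations scipy 1.17.1 and plots matplotlib 3.10.9. The steps were tested on simulated data.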

Additional observations from a re-analysis of the deposited data

Results flagged for a closer look

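On the deposited scale, *Aldoc* was the 1 astrocyte gene whose difference between *Snord116del* and WT had opposite signs at the 2 times, -0.077 at Zt +6 and 0.615 at Zt +16 on the log2 scale. Each value compares single group values, the first is within the 1.5-fold limit, and the difference between the times was not tested. With the groups scaled to the same median 8 of the 10 genes, *Aldoc* among them, had opposite signs at the 2 times, and with the same FPKM sum 7 had, without *Aldoc*.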

How the results depend on the processing

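No paired analysis was possible because the table holds 1 value per group, so the fits with the replicate number as a block and without each mouse in turn were not run. The cause of each change below was not tested. At Zt +6 the count of astrocyte genes past the rule went from 9 to 5 (4 higher and 1 lower) with the same median. Of all tested genes, 15.0% were then higher and 24.4% lower. The count was 3 without the length trend, beside 12.7% higher and 13.1% lower. It was 6 after quantile normalization, beside 22.2% and 20.6%, and 6 at a fold of 2, beside 26.7% and 3.05%. At Zt +16 the count went from 3 to 0 with the same median, the same FPKM sum, quantile normalization, no length trend and a fold of 2. In that order, 1.22%, 0.31%, 0.39%, 0.96% and 1.22% of all tested genes were higher. The shares lower were 0.51%, 0.99%, 0.51%, 0.64% and 0.17%. With time in WT the count went from 6 to 2 at a fold of 2, beside 0.47% of all tested genes higher and 2.32% lower. The median of the 5 shorter minus that of the 5 longer genes, -0.84 at Zt +6, was -0.015 without the length trend and 0.18 both with the median annotated transcript and with the split by mean FPKM. With time it was 0.68 in WT and 0.091 after quantile normalization there, and 0.92 in *Snord116del* and -0.077 without the length trend. The count of genes with a replicated peak, 3, was 0 when replicate peaks had to overlap. Of the differences past the limit as deposited or under the alternative, those that changed sign were those of *Aldoc* at Zt +6 (0.64, quantile), at Zt +16 (-0.044, same sum) and with time in *Snord116del* (-0.55, quantile), of *Slc1a2* at Zt +16 (-0.057, same sum, and -0.00081, quantile) and of *S100b* at Zt +6 (-0.19, same median) and with time in *Snord116del* (-0.82, same sum). Below the limit 30 more changed sign, 23 of them at Zt +16, so that 37 of 280 values of single genes under the alternatives changed sign and 243 kept it. The 243 include every value with a pseudocount of 0.1, a fold of 2 or no filter on low values, where a sign cannot change. All 37 thus came from the settings of scale and length. Without a change of sign, 39 fell below the limit and 7 newly passed it. At Zt +16, 6 of the 10 differences were below 0 with the same median and 8 with the same FPKM sum, 7 after quantile normalization and 5 without the length trend, whereas all 10 were above 0 as deposited. The transcript with the longest coding sequence, an alternative chosen after seeing the data, kept the sign of the shorter minus longer difference in all 4 comparisons.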

Other observations

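Among the further astrocyte genes, 3 with short transcripts were as much higher in *Snord116del* at Zt +6 as the long ones, and were chosen here after their values were seen. *Slc25a18*, a mitochondrial glutamate carrier with a transcript of 1367 bases, was at 2.85 FPKM in WT against 10.8 in *Snord116del* at Zt +6, then 0.866 and 1.73 at Zt +16, differences of 1.61 and 0.55. *Id4*, an inhibitor of DNA binding (1660 bases), was at 4.02 and 13.4, and at 1.22 and 1.76 (1.52 and 0.31). *Ntsr2*, a neurotensin receptor of astrocytes (1547 bases), was at 11.8 and 33.9, and at 8.75 and 13.3 (1.45 and 0.56). The shortest of 5 bins of all tested genes, which holds all 3, had a median of -0.20 at Zt +6. No other tested gene of the further astrocyte genes in that bin was higher at Zt +6. *Fabp7* (-1.04), *Mt1* (-0.90) and *Id3* (-0.71) were lower, and *Cst3*, *Mt2*, *Mt3*, *Dbi*, *S100a1*, *Apoe* and *Hes5* did not pass. *Id3*, of the same family as *Id4* and with 1278 bases, was at 31.9 and 19.1 at Zt +6, then 45.6 and 63.1 at Zt +16, so that the pair differed in opposite directions at Zt +6 and were on the same side at Zt +16 (0.46 for *Id3*).

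The 3 most abundant genes of the lipid, metal and calcium binding list were, like *Aldoc*, higher at Zt +16 in *Snord116del*. *Mt1* was at 630 FPKM in WT against 338 in *Snord116del* at Zt +6, then 1124 and 2138 at Zt +16. *Cst3*, the protease inhibitor cystatin C, was at 1528 and 1463, and at 1794 and 3213. *Apoe*, the lipid carrier apolipoprotein E, was at 863 and 667, and at 1395 and 2745. From Zt +6 to Zt +16 in *Snord116del* *Mt1*, *Cst3* and *Apoe* were higher by 2.66, 1.13 and 2.04, beside 1.45 for *Aldoc*. In that comparison 25.0% of all tested genes were higher. The shortest bin, which holds *Mt1*, *Cst3* and *Apoe*, had a median of 0.99, near the value of *Cst3*. The bin of *Aldoc* had a median of -0.19. Total FPKM in *Snord116del* rose from 160199 at Zt +6 to 342188 at Zt +16, and its part in these differences was not tested. In WT *Mt1* and *Apoe* were higher by 0.83 and 0.69, beside 0.76 for *Aldoc*, and the 0.23 of *Cst3* did not pass. The median of the shortest bin in WT was 0.26, and 5.71% of all tested genes were higher.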
